A study of Mus musculus with 20 samples.

Results

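The 34 genes described here carry out or control glycolysis, lactate handling, the pentose phosphate pathway and the entry of pyruvate into mitochondria. They were taken as a list of named enzymes and transporters out of 42374 genes with summed counts, and 33 of them had enough counts to be tested. Aldoc, a brain-type aldolase, was not tested and was at most 0.314 CPM in any library. CPM stands for the counts of a gene scaled to a common library size with TMM factors.

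RNA was sequenced from endothelial cells of skeletal muscle, sorted as CD31+CD45- cells from C57BL/6N mice. The soleus gave the oxidative and the extensor digitorum longus the glycolytic groups, each from wild type mice and from mice with an endothelial deletion of Atf4 (Atf4 ECKO), with 5 libraries in each of the 4 groups. All mice, controls included, received 1 mg tamoxifen daily on 5 days at 8 to 10 weeks of age and then at least 7 days without it. Wild type here means Cre-negative littermates. The promoter of the Cre, the number of animals behind a library and their sex are not given in the sources used here, so p-values cover only how these libraries vary, and part of that variation may be technical.

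Library totals ran from 8013223 to 21720127 counts. Atf4, the deleted gene, stood at 243 to 281 CPM in glycolytic and 535 to 589 CPM in oxidative wild type, and at 5.79 to 8.7 CPM in the ECKO libraries, so all libraries matched their genotype label. All 12 endothelial markers were present, with a summed level between 10640 and 12700 CPM in every library. Immune markers summed to 21.7 to 26.7 CPM in the glycolytic and 315 to 411 in the oxidative wild type, and 14.5 to 16.2 in glycolytic ECKO and 40.9 to 92.8 in oxidative ECKO. Muscle fibre markers summed to 111 to 122, 175 to 294, 213 to 218 and 275 to 383 CPM in the same order of groups. Pericyte and smooth muscle markers summed to 872 to 887, 599 to 706, 2015 to 2079 and 799 to 1229 CPM. Much of this sum was Acta2, at 186.3 to 190.5 CPM in glycolytic wild type and 1011 to 1040 CPM in glycolytic ECKO. Tagln stood at 119.2 to 145.1 and 500.5 to 538.2 CPM. Between these 2 groups 3 of the 12 markers were called higher in ECKO, 2 lower and 7 not. All tested genes gave 13.9% higher and 15.1% lower. The median log2 fold change of the 12 was -0.02. Fibroblast markers summed to 56.0 to 64.2, 145 to 346, 127 to 134 and 65.5 to 443 CPM. Of these, 9 of 11 tested were called higher in oxidative than in glycolytic wild type, against 16.4% of all tested genes. Red blood cell markers summed to 3788 to 4011, 4400 to 6752, 2268 to 2491 and 2506 to 4276 CPM. All 5 were called lower with loss of Atf4 in oxidative and in glycolytic muscle, against 17.4% and 15.1% of all genes. All 5 were called higher in oxidative muscle in wild type and in ECKO, against 16.4% and 8.31%. Their part in the changes of the members was not tested. RNA of Y-linked genes, summed over Eif2s3y, Kdm5d, Uty and Ddx3y, was present in all wild type libraries, at most 1.48% of the wild type median in the glycolytic ECKO libraries, and split in oxidative ECKO, with 62.1%, 63.0% and 31.0% in replicates 1, 2 and 3 and 0.896% and 1.05% in replicates 4 and 5. Xist, an RNA of the inactive X chromosome, ranged from 59.28 to 66.35 CPM over the glycolytic ECKO libraries. Oxidative ECKO replicates 1 to 5 held 18.59, 17.97, 43.81, 81.55 and 76.16 CPM, and every wild type library had 0.2744 CPM or less. By these RNAs wild type was male and glycolytic ECKO female, while oxidative ECKO replicates 1, 2 and 3 held RNA of both kinds. Genotype and sex therefore cannot be told apart in glycolytic muscle, and no oxidative ECKO library matched wild type in sex RNA. In bulk RNA, fewer cells of a type and less RNA per cell cannot be told apart.

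Glycolysis splits glucose into pyruvate in the cytosol and is the main source of ATP in endothelial cells, also in those that sprout into new vessels. Glucose enters through the transporter Slc2a1, is trapped by hexokinase, and is split into trioses whose oxidation ends in pyruvate. Pyruvate then either becomes lactate or enters mitochondria through the pyruvate dehydrogenase complex, which its kinases switch off. The pentose phosphate pathway branches off after hexokinase and supplies NADPH and ribose for reduction and nucleotide synthesis. Cells under amino acid shortage or other stress translate more Atf4, a transcription factor best known for driving genes of amino acid supply.

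The 7 most abundant members were 6 enzymes between aldolase and lactate dehydrogenase, Gapdh, Aldoa, Ldha, Eno1, Pkm and Pgk1, and the transaldolase Taldo1. Per transcript length, in the deposited TPM averaged over all 20 libraries, Gapdh led with 1252, followed by Aldoa with 719.6, Taldo1 with 589.9, Ldha with 457 and Eno1 with 366. Hk1, the main hexokinase here, stood at 39.2 TPM against 1.06 TPM for Hk2. Among isoforms, Pfkl (37 TPM) and Pfkp (33.6 TPM) were above the muscle isoform Pfkm (8.46 TPM), and Ldha was far above Ldhb (12.7 TPM). Pdk2 (14.7 TPM) and Pdk3 (9.61 TPM) were above Pdk1 (3.92 TPM) and Pdk4 (3 TPM) among the pyruvate dehydrogenase kinases. TPM is used to order genes and for the transcript share of Pkm, and all other differences between groups below are in CPM or in log2 fold changes of the count fit.

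**Figure D1:**
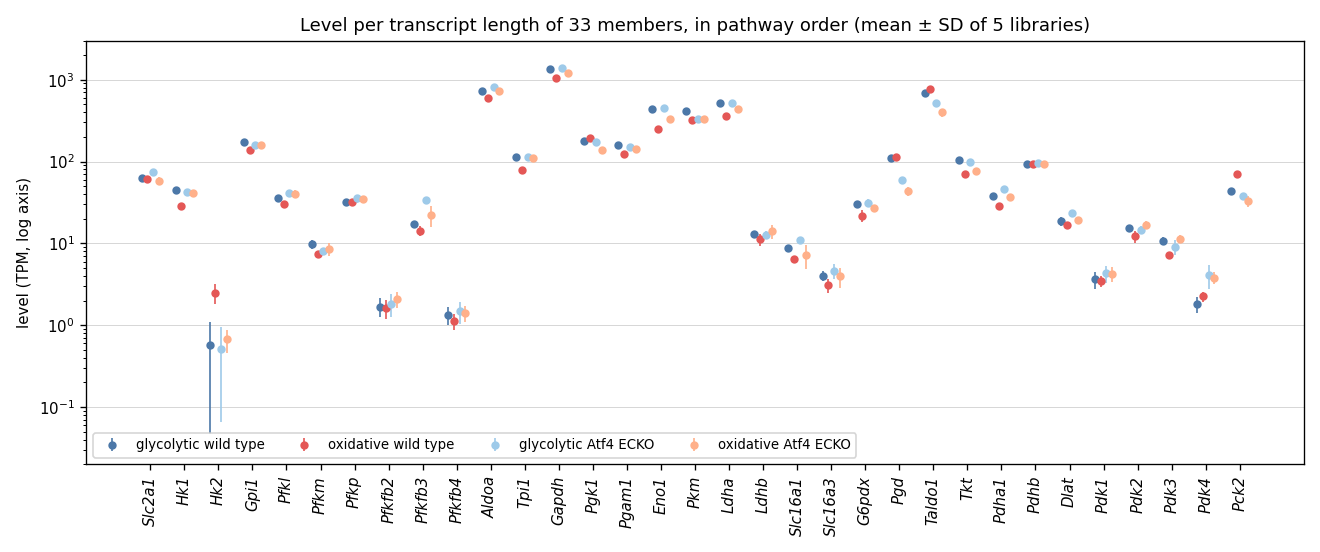
Level of the 33 tested genes in deposited TPM (log axis), in pathway order from glucose uptake to Pck2, as mean ± SD of 5 libraries for each of the 4 groups. Gapdh and Aldoa lie at the top, while Hk2, Pfkfb2, Pfkfb4 and Pdk4 lie near the bottom, with the widest bars for Hk2.

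Members changed in both directions in every comparison. Between the muscles in wild type, 7 were higher and 12 lower in oxidative muscle out of 33 (57.6%), where 32.4% of all 13971 tested genes were called by edgeR at an adjusted p below 0.05 (16.4% higher, 15.9% lower). Their median log2 fold change was -0.14 against -0.0033 over all tested genes. With loss of Atf4 in oxidative muscle 8 members were higher and 10 lower (54.5%), against 32% of all genes (14.6% higher, 17.4% lower). Their median log2 fold change was 0.02 beside 0.02 over all genes. In glycolytic muscle, 4 rose and 11 fell with the loss of Atf4 (45.5%), against 29% of all genes (13.9% higher, 15.1% lower), with medians of -0.12 and 0.0041. Between the muscles without Atf4, 2 were higher and 11 lower in oxidative muscle (39.4%), against 18.4% of all genes (8.31% higher, 10.1% lower), with medians of -0.03 and -0.0016. The interaction, which tests whether the change with loss of Atf4 differs between the muscles, was called higher for 8 and lower for 7 members (45.5%), against 22.6% of all genes (10.1% higher, 12.5% lower). The median absolute log2 fold change of the members was 0.216, 0.198, 0.182, 0.188 and 0.254 in this order of comparisons. Over all tested genes it was 0.198, 0.202, 0.192, 0.155 and 0.24, so typical changes were of similar size although more members were called. The part of the abundance of members in their share of calls was not tested. Comparisons that share a group are not independent of each other.

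**Figure D2:**
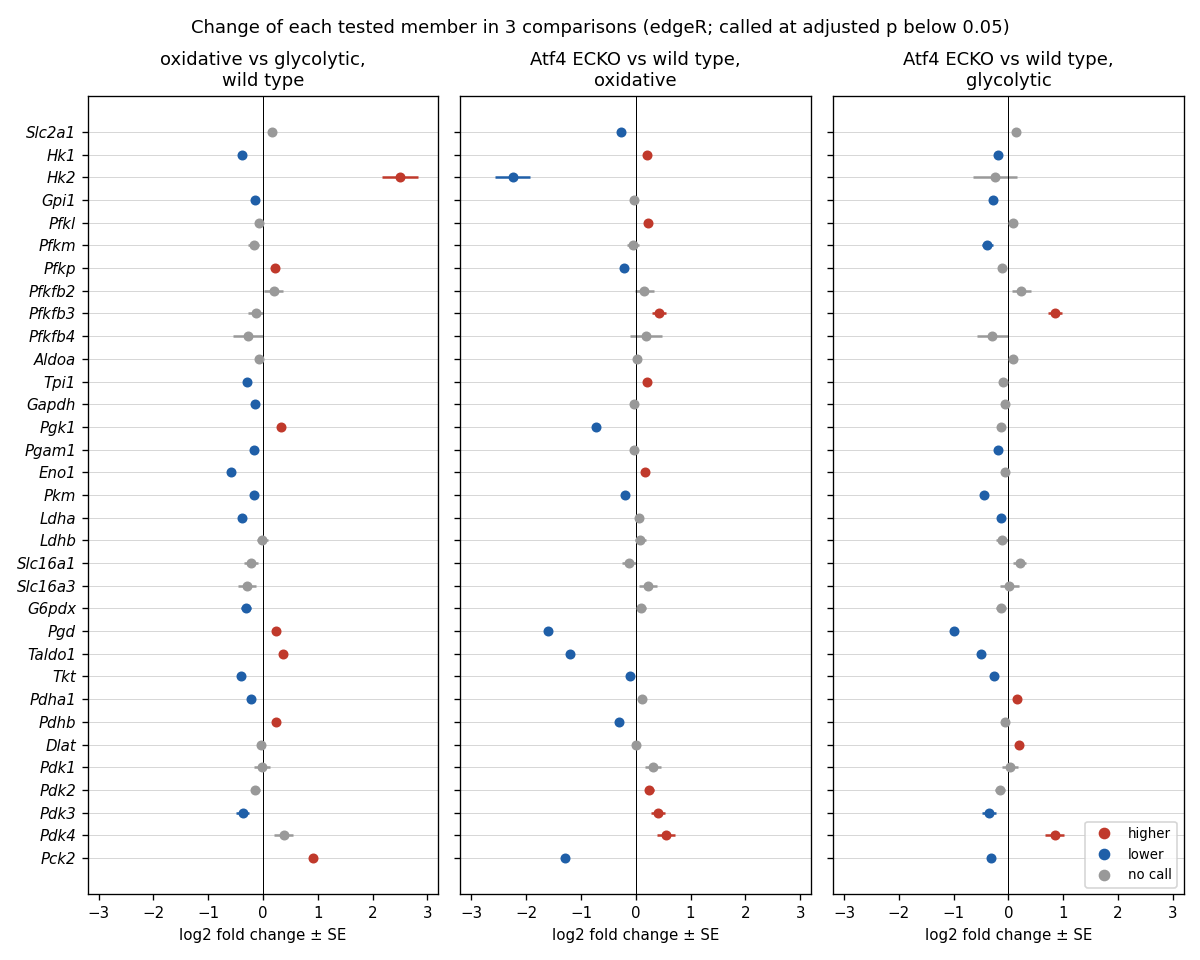
Log2 fold change ± SE (edgeR, 20 libraries in 1 fit) of each tested member in 3 comparisons, with calls at an adjusted p below 0.05 in colour. Hk2 and Pck2 stand apart to the right between wild type muscles and, with Pgd and Taldo1, to the left with loss of Atf4 in oxidative muscle, while Pfkfb3 and Pdk4 lie to the right in glycolytic muscle.

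Single library values below are in CPM in the order of replicates 1 to 5, which have no order in time or dose. Slc2a1, the GLUT1 glucose transporter of endothelium (ENSMUSG00000028645.11, chr4:119108711-119137983, plus strand), stood at 136, 129, 122, 135 and 136 in glycolytic and 140.0, 149.8, 158, 140.3 and 144 in oxidative wild type. ECKO values of Slc2a1 were 143, 144, 144, 149.6 and 142 in glycolytic and 142, 132, 123, 100.1 and 111 in oxidative muscle. The oxidative ECKO libraries spread widely, and replicates 4 and 5, which lack Y-linked RNA, were the lowest. Glycolytic wild type lay below oxidative wild type and below glycolytic ECKO without overlap, although the first difference had no call (log2 fold change 0.15 ± 0.06 SE, edgeR adjusted p = 0.0676). With loss of Atf4, Slc2a1 fell in oxidative muscle (log2 fold change -0.27 ± 0.06 SE, edgeR adjusted p = 0.00193) and had no call in glycolytic muscle (log2 fold change 0.13 ± 0.06 SE, edgeR adjusted p = 0.125). The interaction was called (log2 fold change -0.41 ± 0.09 SE, edgeR adjusted p = 0.00175). Over the oxidative ECKO libraries with Y-linked RNA alone the log2 fold change was -0.14 (adjusted p = 0.0462), and over those without it -0.47 (adjusted p = 5.93e-07). The fall turned its direction with the immune level as a covariate (0.51, adjusted p = 0.113) and with that of Y-linked RNA (0.21, adjusted p = 0.126), a covariate chosen after seeing the data. With the immune level the interaction turned too (0.19, adjusted p = 0.534).

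Hexokinases phosphorylate glucose and so commit it to the cell. Hk1, the broadly expressed isoform (ENSMUSG00000037012.18, chr10:62268855-62379908, minus strand), stood at 128, 123, 129, 138 and 143 in glycolytic and 103, 97.6, 98.2, 106 and 99 in oxidative wild type. Without Atf4 it stood at 117, 113, 117, 121 and 113 in glycolytic and 112, 113, 122, 114 and 118 in oxidative muscle. The wild type muscles did not overlap, whereas the ECKO groups lay on each other. Hk1 was 1.31-fold lower (log2 fold change -0.39 ± 0.04 SE, edgeR adjusted p = 1.09e-07) in oxidative wild type. With loss of Atf4 it was higher in oxidative muscle (log2 fold change 0.20 ± 0.04 SE, edgeR adjusted p = 0.00113) and lower in glycolytic muscle (log2 fold change -0.18 ± 0.04 SE, edgeR adjusted p = 0.00274), and the interaction was called (log2 fold change 0.38 ± 0.06 SE, edgeR adjusted p = 5.59e-05). With the immune level as a covariate the rise (0.05, adjusted p = 0.918), the interaction (0.26, adjusted p = 0.273) and the wild type difference (-0.18, adjusted p = 0.74) lost their calls. The rise also lost its call with the level of Y-linked RNA (0.14, adjusted p = 0.354). With the fibre level the glycolytic fall (-0.19, adjusted p = 0.118) and the wild type difference (-0.41, adjusted p = 0.0838) lost theirs.

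Hk2, the insulin-regulated isoform of muscle that is also induced in activated cells (ENSMUSG00000000628.10, chr6:82725025-82774454, minus strand), was a rare transcript. It stood at 1.24, 0.547, 0.77, 0.715 and 0.469 CPM in glycolytic and 3.1, 5.16, 4.89, 4.02 and 3.5 CPM in oxidative wild type. Without Atf4 the values were 0.586, 1.44, 0.511, 0.423 and 0.119 CPM in glycolytic and 0.778, 0.709, 0.788, 1.27 and 0.777 CPM in oxidative muscle. All 5 oxidative wild type libraries were above all 15 others. Hk2 was 5.67-fold higher (log2 fold change 2.50 ± 0.33 SE, edgeR adjusted p = 1.14e-06) in oxidative than in glycolytic wild type. It was 4.75-fold lower (log2 fold change -2.25 ± 0.33 SE, edgeR adjusted p = 5.12e-06) in oxidative ECKO than in oxidative wild type, and the interaction was called (log2 fold change -2.002 ± 0.53 SE, edgeR adjusted p = 0.00649). Immune markers were highest in the same group. Between wild type muscles 14 of 14 tested markers were called higher, against 16.4% of all genes. With loss of Atf4 in oxidative muscle 14 of 14 were called lower, against 17.4% of all genes. With the immune level as a covariate the 2 log2 fold changes of Hk2 were 2.84 (adjusted p = 0.46) and -2.50 (adjusted p = 0.337). The immune level does not overlap between the wild type muscles or between the oxidative genotypes, so such a fit extends its slope beyond the libraries of a group. The interaction call was also lost with an offset for transcript length (log2 fold change -1.78, adjusted p = 0.131).

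The 4 members of the hexose phosphate steps changed little. Gpi1, the glucose 6-phosphate isomerase (ENSMUSG00000036427.5, chr7:34201330-34230336, minus strand), stood at 262, 263, 277, 271 and 271 in glycolytic and 239.8, 227, 246, 240.5 and 266 in oxidative wild type. ECKO values of Gpi1 were 225, 214, 213, 220.4 and 233 in glycolytic and 226, 242, 245, 237 and 244 in oxidative muscle. Gpi1 was lower with loss of Atf4 in glycolytic muscle without overlap (log2 fold change -0.28 ± 0.04 SE, edgeR adjusted p = 1.04e-05), and the interaction was called (log2 fold change 0.25 ± 0.06 SE, edgeR adjusted p = 0.00263). Between wild type muscles it was lower in oxidative muscle (log2 fold change -0.14 ± 0.04 SE, edgeR adjusted p = 0.0119), a call lost without oxidative wild type replicate 2 (adjusted p = 0.0515). Phosphofructokinase, the first enzyme committed to glycolysis, has 3 subunit genes here. Pfkl, the liver type, rose with loss of Atf4 in oxidative muscle (log2 fold change 0.23 ± 0.05 SE, edgeR adjusted p = 0.00154), a direction that turned with the immune level as a covariate (-0.21, adjusted p = 0.594). Pfkm, the muscle type, fell in glycolytic muscle (log2 fold change -0.39 ± 0.10 SE, edgeR adjusted p = 0.00629). Pfkp, the platelet type, was higher in oxidative wild type (log2 fold change 0.21 ± 0.05 SE, edgeR adjusted p = 0.0028) and fell there with loss of Atf4 (log2 fold change -0.21 ± 0.05 SE, edgeR adjusted p = 0.00292). The fall of Pfkp was not called with an offset for transcript length (log2 fold change -0.16, adjusted p = 0.104). This fall also lost its call with the fibre (-0.20, adjusted p = 0.0526), immune (-0.32, adjusted p = 0.414) or Y-linked RNA level (-0.21, adjusted p = 0.254) as a covariate. The wild type difference of Pfkp lost its call with the fibre (0.24, adjusted p = 0.484) and the immune level (0.35, adjusted p = 0.541).

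Of the 3 enzymes that set fructose 2,6-bisphosphate, the activator of phosphofructokinase, Pfkfb3 was the main one, and Pfkfb2 and Pfkfb4 stood at 1.28 to 6.58 CPM with no call in any comparison. Pfkfb3, which drives glycolysis in sprouting vessels (ENSMUSG00000026773.19, chr2:11471433-11554077, minus strand), stood at 59.9, 50.7, 48, 54 and 55.4 in glycolytic and 47.9, 41.5, 51.7, 46.2 and 55.6 in oxidative wild type. Without Atf4 it stood at 99.6, 94.9, 100.2, 96.7 and 90.7 in glycolytic and 47.6, 45.3, 57.2, 89.4 and 84.2 in oxidative muscle. All glycolytic ECKO libraries were above all wild type libraries, and within oxidative ECKO replicates 4 and 5 were far above replicates 1, 2 and 3. Pfkfb3 was 1.8-fold higher with loss of Atf4 in glycolytic muscle (log2 fold change 0.85 ± 0.13 SE, edgeR adjusted p = 1.33e-05) and 1.34-fold higher in oxidative muscle (log2 fold change 0.42 ± 0.13 SE, edgeR adjusted p = 0.0155). The interaction was not called (log2 fold change -0.43 ± 0.18 SE, edgeR adjusted p = 0.0991). The rise in oxidative muscle rested on the libraries without Y-linked RNA. It was 0.06 (adjusted p = 0.654) over the 3 with it, 0.83 (adjusted p = 5.34e-09) over the 2 without it, and not called when replicate 4 or 5 was left out (adjusted p up to 0.0745). With the level of Y-linked RNA as a covariate the change of Pfkfb3 turned its direction in glycolytic (-0.39, adjusted p = 0.151) and in oxidative muscle (-0.72, adjusted p = 0.00231). In oxidative muscle it also turned with the immune level (-1.46, adjusted p = 0.00912). With the fibre level as a covariate the rise of Pfkfb3 in glycolytic muscle lost its call (0.25, adjusted p = 0.404). In oxidative muscle the value in that fit was -0.005 (adjusted p = 0.988).

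The triose steps, which harvest ATP and NADH, include the most abundant members. Of 7 tested, Tpi1, Gapdh, Pgam1, Eno1 and Pkm were lower and Pgk1 was higher in oxidative than in glycolytic wild type, and Aldoa had no call in any comparison. Gapdh, the dehydrogenase often used as a reference gene, differed little (log2 fold change -0.15 ± 0.05 SE, edgeR adjusted p = 0.0257), and its call was lost without oxidative wild type replicate 1 or 2 or glycolytic wild type replicate 2 (adjusted p up to 0.0849). Gapdh has 175 processed pseudogenes in the annotation, Ldha has 15, Pkm 8, Eno1 6 and Pgk1 4. The deposited tables list 4 of 9943 processed pseudogene transcripts, so reads from an unlisted copy may have been counted with the parent. Near-copies that the tables do list, 13 of them for Gapdh, held 2.09% of the counts of Gapdh and its copies and less for each other member. Reads from unlisted copies were not measured, so these shares do not bound how uncertain the levels of these genes are. Slc2a1, Hk1, Hk2, Gpi1, Pfkfb3, Pdk2 and Pck2 overlap noncoding genes on the opposite strand, and Pfkm, Pfkp, Pfkfb2, Aldoa, Tpi1, Gapdh, G6pdx and Pdha1 overlap protein-coding ones. Since the sources used here do not say whether strand was used in counting, reads of these partners may not have been told apart.

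Eno1, the broadly expressed enolase (ENSMUSG00000063524.13, chr4:150236721-150248879, plus strand), stood at 586, 602, 619, 608 and 636 in glycolytic and 401, 406, 425, 397 and 399 in oxidative wild type. ECKO values of Eno1 were 585, 581, 587, 579 and 586 in glycolytic and 462, 489, 464, 411 and 465 in oxidative muscle. Glycolytic muscle was above oxidative muscle in both genotypes without overlap. The difference was 1.5-fold in wild type (log2 fold change -0.59 ± 0.04 SE, edgeR adjusted p = 3.08e-11) and 1.27-fold without Atf4 (log2 fold change -0.35 ± 0.04 SE, edgeR adjusted p = 1.23e-06), and the interaction was called (log2 fold change 0.24 ± 0.06 SE, edgeR adjusted p = 0.00442). The rise with loss of Atf4 in oxidative muscle (log2 fold change 0.18 ± 0.04 SE, edgeR adjusted p = 0.00216) had no call over the ECKO libraries without Y-linked RNA (0.11, adjusted p = 0.118).

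Tpi1, which interconverts the trioses (ENSMUSG00000023456.15, chr6:124810586-124814296, minus strand), stood at 129, 129.7, 129.7, 118 and 129 in glycolytic and 106, 105, 99.6, 98.3 and 107 in oxidative wild type. ECKO values of Tpi1 were 118, 118, 114, 119 and 121 in glycolytic and 117, 125, 118, 110.0 and 123 in oxidative muscle. Oxidative wild type was below each of the other groups without overlap. Tpi1 was lower in oxidative wild type (log2 fold change -0.30 ± 0.04 SE, edgeR adjusted p = 3.81e-06), rose there with loss of Atf4 (log2 fold change 0.20 ± 0.04 SE, edgeR adjusted p = 0.000609), and showed a called interaction (log2 fold change 0.30 ± 0.06 SE, edgeR adjusted p = 0.000495). With the immune level as a covariate none of these was called (-0.23, 0.15 and 0.26, adjusted p = 0.649, 0.685 and 0.257). The wild type difference also lost its call with the fibre level (-0.35, adjusted p = 0.132). Pgam1, the mutase after Pgk1, was lower in oxidative wild type (log2 fold change -0.17 ± 0.04 SE, edgeR adjusted p = 0.0029) and fell with loss of Atf4 in glycolytic muscle (log2 fold change -0.18 ± 0.04 SE, edgeR adjusted p = 0.00196). Neither call of Pgam1 remained with the fibre level as a covariate (-0.07 and -0.13, adjusted p = 0.847 and 0.29) or the immune level (-0.59 and -0.11, adjusted p = 0.0905 and 0.133).

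Pgk1, the X-linked kinase of the first ATP-yielding step (ENSMUSG00000062070.12, chrX:106187100-106203699, plus strand), was the only triose enzyme called higher in oxidative wild type. It stood at 218, 236, 224, 229.9 and 236 in glycolytic and 255, 281, 310.3, 298 and 285 in oxidative wild type. Without Atf4 it stood at 222, 205, 198, 205 and 211 in glycolytic and 175, 186, 186, 152 and 167 in oxidative muscle. Oxidative muscle was the highest group in wild type and the lowest without Atf4, in each case without overlap. Pgk1 was 1.65-fold lower (log2 fold change -0.73 ± 0.06 SE, edgeR adjusted p = 6.01e-11) with loss of Atf4 in oxidative muscle, and had no call in glycolytic muscle (log2 fold change -0.14 ± 0.05 SE, edgeR adjusted p = 0.0605). The interaction was called (log2 fold change -0.59 ± 0.08 SE, edgeR adjusted p = 2.21e-06). With the immune level as a covariate the difference between wild type muscles (log2 fold change 0.32 ± 0.05 SE, edgeR adjusted p = 4.12e-05) turned to -0.28, adjusted p = 0.614. The fall in oxidative muscle was called over the ECKO libraries with Y-linked RNA (-0.64, edgeR adjusted p = 2.16e-10) and without it (-0.84, adjusted p = 7.45e-11). This fall lost its call with the immune level as a covariate (-0.28, adjusted p = 0.436), as did the interaction (-0.25, adjusted p = 0.383).

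Pkm, the last enzyme of glycolysis (ENSMUSG00000032294.17, chr9:59656368-59679375, plus strand), stood at 721, 694, 710.0, 705 and 694 in glycolytic and 595, 645, 659.5, 609.7 and 638 in oxidative wild type. ECKO values of Pkm were 510.4, 521, 514, 539 and 518 in glycolytic and 606, 604, 589, 487 and 461 in oxidative muscle. The glycolytic genotypes did not overlap, and in oxidative ECKO replicates 4 and 5 lay well below replicates 1, 2 and 3. Pkm was lower with loss of Atf4 in glycolytic muscle (log2 fold change -0.44 ± 0.06 SE, edgeR adjusted p = 2.84e-06). In oxidative muscle the fall (log2 fold change -0.20 ± 0.06 SE, edgeR adjusted p = 0.0134) was -0.06 (adjusted p = 0.317) over the libraries with Y-linked RNA and -0.41 (adjusted p = 3.61e-07) over those without it, and its call was lost without replicate 5 of oxidative ECKO (adjusted p = 0.0509). The difference between wild type muscles (log2 fold change -0.16 ± 0.06 SE, edgeR adjusted p = 0.0377) lost its call in 9 of the fits that left out 1 library (adjusted p up to 0.0991), and the interaction (log2 fold change 0.24 ± 0.09 SE, edgeR adjusted p = 0.0402) in 14 (adjusted p up to 0.0818). With the level of Y-linked RNA as a covariate Pkm turned its direction in glycolytic (0.07, adjusted p = 0.703) and in oxidative muscle (0.24, adjusted p = 0.0551). It also turned with the immune level in oxidative muscle (0.67, adjusted p = 0.00708) and with the fibre level between wild type muscles (0.06, adjusted p = 0.911).

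Pkm makes 2 enzymes from mutually exclusive exons of 167 bases each. M1 is the form of muscle and brain, and M2 that of proliferating and many other cells. The exons lie at chr9:59675029-59675195 (M1-type) and chr9:59675568-59675734 (M2-type) on the plus strand of GRCm38. They are shown because reads over their 64 differing bases, in capitals, tell the transcripts apart.
M1-type exon: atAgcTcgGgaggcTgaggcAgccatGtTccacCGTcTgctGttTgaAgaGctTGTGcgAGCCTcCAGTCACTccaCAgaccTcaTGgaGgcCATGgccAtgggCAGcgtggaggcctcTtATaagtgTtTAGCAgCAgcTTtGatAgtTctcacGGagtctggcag
M2-type exon: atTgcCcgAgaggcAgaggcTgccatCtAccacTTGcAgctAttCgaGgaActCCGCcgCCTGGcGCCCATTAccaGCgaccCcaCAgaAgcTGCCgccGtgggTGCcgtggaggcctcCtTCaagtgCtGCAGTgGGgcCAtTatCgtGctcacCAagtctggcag

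Endothelial Pkm was mostly of the M2 type. The M1 share of Pkm TPM was 16.6% ± 0.688 (SD, n = 5) in glycolytic and 17.8% ± 1.25 in oxidative wild type, and 18.1% ± 2.13 in glycolytic ECKO and 15.7% ± 1.73 in oxidative ECKO. Single libraries ran from 12.8% in oxidative ECKO replicate 2 to 20.3% in glycolytic ECKO replicate 1, and all 4 groups overlapped. No comparison passed in 2-sided exact permutation tests over all assignments of libraries to 2 groups, with adjusted p = 0.138 between wild type muscles, 0.138 for loss of Atf4 in oxidative muscle, 0.198 in glycolytic muscle and 0.138 between ECKO muscles. The exact permutation p for oxidative muscle was 0.0476 before adjustment over the 4 comparisons. The estimates come from single-end reads of 100 bases, and the transcripts also differ at their ends.

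Lactate dehydrogenase turns pyruvate into lactate and restores NAD for glycolysis, and the monocarboxylate transporters carry lactate over the membrane. Ldha, the subunit of the muscle-type enzyme (ENSMUSG00000063229.15, chr7:46841475-46855627, plus strand), stood at 629.7, 572, 589, 621 and 553 in glycolytic and 458, 454, 444, 458 and 464 in oxidative wild type. ECKO values of Ldha were 528, 545, 534, 564 and 519 in glycolytic and 459, 451, 485, 473 and 491 in oxidative muscle. Oxidative muscle was lower in both genotypes without overlap. The difference was 1.3-fold in wild type (log2 fold change -0.38 ± 0.04 SE, edgeR adjusted p = 9.03e-08) and 1.14-fold without Atf4 (log2 fold change -0.19 ± 0.04 SE, edgeR adjusted p = 0.00226). With the immune level as a covariate neither was called (-0.051 and -0.045, adjusted p = 0.939 and 0.857). The same held with the fibre level (-0.41 and -0.21, adjusted p = 0.0708 and 0.355). Ldha was lower with loss of Atf4 in glycolytic muscle (log2 fold change -0.14 ± 0.04 SE, edgeR adjusted p = 0.0149) and had no call in oxidative muscle (log2 fold change 0.05 ± 0.04 SE, edgeR adjusted p = 0.405). The interaction (log2 fold change 0.19 ± 0.06 SE, edgeR adjusted p = 0.0233) was lost without glycolytic ECKO replicate 5 or glycolytic wild type replicate 1 (adjusted p up to 0.0532) and with no filter on low counts (adjusted p = 0.0544).

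Ldhb, the subunit of the heart-type enzyme, had no call and stood between 9.26 and 14.2 CPM in all libraries. Slc16a3, the transporter MCT4 of lactate-exporting cells, had no call either, at 3.49 to 7.41 CPM. Slc16a1, the broadly expressed MCT1, stood at 28.4 to 31.4 CPM in glycolytic and 21.1 to 28.6 CPM in oxidative wild type, and at 32.9, 31.9, 34.2, 33.9 and 37.2 CPM in glycolytic and 17.2, 15.8, 23.4, 32 and 27.8 CPM in oxidative ECKO. Glycolytic ECKO lay above glycolytic wild type without overlap, with no call (log2 fold change 0.20 ± 0.12 SE, edgeR adjusted p = 0.237). Slc16a1 was lower in oxidative than in glycolytic ECKO (log2 fold change -0.53 ± 0.13 SE, edgeR adjusted p = 0.00338). It was called over the oxidative ECKO libraries with Y-linked RNA (-0.81, adjusted p = 1.93e-06), and over those without it there was no call (-0.19, adjusted p = 0.221). It turned its direction with the immune level as a covariate (0.45, adjusted p = 0.272).

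Pgd and Taldo1 of the pentose phosphate pathway fell with loss of Atf4 in both muscles, and more in oxidative muscle. Pgd, the dehydrogenase of the second NADPH-yielding step (ENSMUSG00000028961.15, chr4:149149991-149166771, minus strand), stood at 194, 164, 181, 179 and 160.0 in glycolytic and 199, 207, 220.1, 204 and 206 in oxidative wild type. Without Atf4 it stood at 86.4, 91.6, 87, 88.3 and 85.5 in glycolytic and 76.9, 70.4, 78.2, 55.4 and 62.1 in oxidative muscle. All 10 ECKO libraries were below all 10 wild type libraries. Pgd was 3.02-fold lower (log2 fold change -1.59 ± 0.07 SE, edgeR adjusted p = 5.9e-16) in oxidative muscle and 2-fold lower (log2 fold change -0.9992 ± 0.07 SE, edgeR adjusted p = 2.03e-11) in glycolytic muscle. The interaction was called (log2 fold change -0.60 ± 0.10 SE, edgeR adjusted p = 5.21e-05), and Pgd was higher in oxidative than in glycolytic wild type (log2 fold change 0.24 ± 0.07 SE, edgeR adjusted p = 0.00714) but lower in oxidative than in glycolytic ECKO (log2 fold change -0.36 ± 0.07 SE, edgeR adjusted p = 0.000749).

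Taldo1, the transaldolase that links pentoses back to glycolysis (ENSMUSG00000025503.5, chr7:141392199-141402968, plus strand), stood at 486, 524, 556, 501 and 571 in glycolytic and 633, 691, 717, 702 and 666 in oxidative wild type. ECKO values of Taldo1 were 373, 385, 374, 351 and 381 in glycolytic and 318, 342, 300.5, 232 and 284 in oxidative muscle. The 4 groups did not overlap. Taldo1 was 2.31-fold lower (log2 fold change -1.21 ± 0.07 SE, edgeR adjusted p = 3.13e-13) with loss of Atf4 in oxidative muscle and 1.42-fold lower (log2 fold change -0.50 ± 0.07 SE, edgeR adjusted p = 3.69e-06) in glycolytic muscle, with a called interaction (log2 fold change -0.71 ± 0.10 SE, edgeR adjusted p = 5.47e-06). Oxidative was above glycolytic muscle in wild type (log2 fold change 0.37 ± 0.07 SE, edgeR adjusted p = 0.000155) and below it in ECKO (log2 fold change -0.34 ± 0.07 SE, edgeR adjusted p = 0.00105).

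The falls in oxidative muscle were present on either side of the Y-linked RNA split. All of these ECKO libraries held Xist (17.97 to 81.55 CPM), unlike wild type, so neither side separates genotype from sex. For Pgd the log2 fold change was -1.45 (edgeR adjusted p = 2.41e-17) over the ECKO libraries with Y-linked RNA and -1.81 (adjusted p = 2.04e-17) over those without it. For Taldo1 it was -1.08 (adjusted p = 1.03e-14) and -1.40 (adjusted p = 2.22e-14). With the level of Y-linked RNA as a covariate, the log2 fold change of Taldo1 in glycolytic muscle was 0.02 (adjusted p = 0.944), while that of Pgd was -0.57 (adjusted p = 0.00727). The differences between wild type muscles turned with the immune level as a covariate, for Pgd (-0.81, adjusted p = 0.127) and for Taldo1 (-0.65, adjusted p = 0.238). With the immune level as a covariate, the call of Taldo1 in oxidative muscle was lost (-0.47, adjusted p = 0.224). The interactions lost their calls in the same fit, for Pgd (-0.0093, edgeR adjusted p = 0.985) and for Taldo1 (-0.14, adjusted p = 0.726). With the fibre level as a covariate the differences between ECKO muscles lost their calls, for Pgd (-0.12, adjusted p = 0.805) and for Taldo1 (-0.08, adjusted p = 0.88). The difference between wild type muscles lost its call for Pgd (0.52, adjusted p = 0.144) and kept it for Taldo1 (0.68, adjusted p = 0.0448).

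Tkt, the transketolase, was lower in oxidative muscle in both genotypes. It stood at 147 to 164 CPM in glycolytic and 112 to 119 CPM in oxidative wild type, and at 120.4 to 132 and 104 to 112 CPM without Atf4. The difference between the muscles was called in wild type (log2 fold change -0.40 ± 0.04 SE, edgeR adjusted p = 1.08e-08) and in ECKO (log2 fold change -0.25 ± 0.04 SE, edgeR adjusted p = 7.69e-05), without overlap in either. Neither was called with the immune level as a covariate (-0.27 and -0.19, adjusted p = 0.542 and 0.293) or the fibre level (-0.38 and -0.23, adjusted p = 0.0783 and 0.285). Tkt was lower with loss of Atf4 in glycolytic muscle (log2 fold change -0.26 ± 0.04 SE, edgeR adjusted p = 1.45e-05). In oxidative muscle its small fall (log2 fold change -0.11 ± 0.04 SE, edgeR adjusted p = 0.0447) lost its call in 11 of the fits that left out 1 library (adjusted p up to 0.092). G6pdx, the X-linked dehydrogenase that opens the pathway, was lower in oxidative wild type (log2 fold change -0.31 ± 0.09 SE, edgeR adjusted p = 0.00694) and had no call with loss of Atf4 in either muscle.

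**Figure D3:**
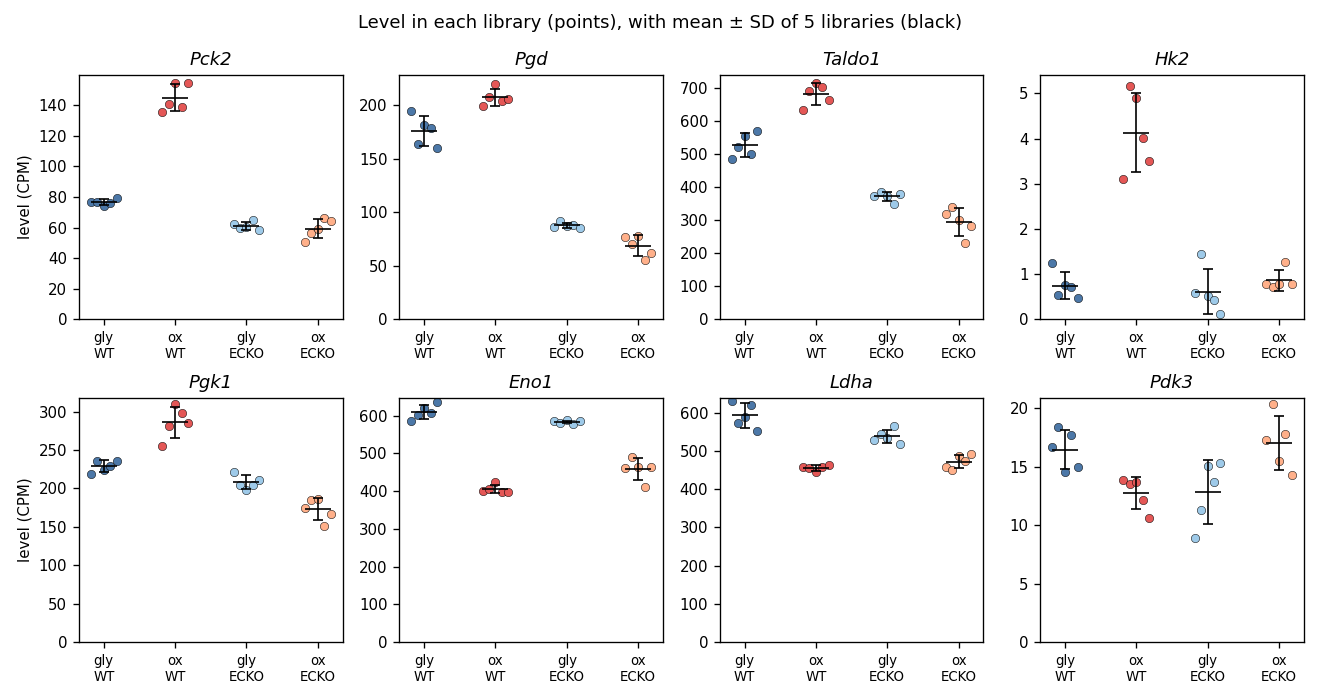
Level in CPM of 8 members in each library (points), with the mean ± SD of 5 libraries (black), for glycolytic (gly) and oxidative (ox) wild type (WT) and Atf4 ECKO. Pck2, Hk2 and Pgk1 are highest in oxidative wild type, Pgd and Taldo1 are lower in all ECKO libraries than in all wild type libraries, and Eno1 and Ldha follow the muscle in both genotypes.

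Genes of pyruvate entry into mitochondria changed by small amounts. Pdhb, a subunit of the first enzyme of the pyruvate dehydrogenase complex (ENSMUSG00000021748.9, chr14:8165996-8173025, minus strand), stood at 104, 93.3, 102, 91.1 and 101 in glycolytic and 116, 128, 109.9, 118 and 109 in oxidative wild type. ECKO values of Pdhb were 101, 94, 88, 87.1 and 98 in glycolytic and 94.2, 101, 89.6, 89.1 and 96.5 in oxidative muscle. Oxidative wild type was above the other 3 groups without overlap. Pdhb was higher in oxidative wild type (log2 fold change 0.24 ± 0.05 SE, edgeR adjusted p = 0.000964) and fell there with loss of Atf4 (log2 fold change -0.30 ± 0.05 SE, edgeR adjusted p = 8.12e-05). The interaction (log2 fold change -0.23 ± 0.08 SE, edgeR adjusted p = 0.0297) lost its call in 7 of the fits that left out 1 library (adjusted p up to 0.0654). The fall in oxidative muscle was not called with the immune level as a covariate (-0.33, adjusted p = 0.391) or that of Y-linked RNA (-0.24, adjusted p = 0.174). The wild type difference was not called with the immune (0.28, adjusted p = 0.657) or the fibre level (0.36, adjusted p = 0.229).

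Pdha1, the X-linked partner of Pdhb, stood at 79.1 to 81.7, 66.3 to 78.5, 79.1 to 96.3 and 70 to 81.2 CPM in the glycolytic and oxidative wild type and the glycolytic and oxidative ECKO. It was lower in oxidative muscle in wild type (log2 fold change -0.21 ± 0.06 SE, edgeR adjusted p = 0.00477) and in ECKO (log2 fold change -0.25 ± 0.06 SE, edgeR adjusted p = 0.00212). Its rise with loss of Atf4 in glycolytic muscle (log2 fold change 0.15 ± 0.06 SE, edgeR adjusted p = 0.0482) lost its call in 11 of the fits that left out 1 library (adjusted p up to 0.221). Dlat, the acetyltransferase core of the complex, rose with loss of Atf4 in glycolytic muscle (log2 fold change 0.19 ± 0.06 SE, edgeR adjusted p = 0.0124), a call lost without glycolytic ECKO replicate 3 (adjusted p = 0.0837), and was lower in oxidative than in glycolytic ECKO (log2 fold change -0.23 ± 0.06 SE, edgeR adjusted p = 0.00572). The latter turned with the fibre level as a covariate (0.07, adjusted p = 0.869).

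The 4 pyruvate dehydrogenase kinases, which switch the complex off, differed in their calls. Pdk4, the isoform induced by fasting and fatty acids (ENSMUSG00000019577.6, chr6:5483351-5496309, minus strand), stood at 4.36, 3.51, 5.55, 4.45 and 4.68 in glycolytic and 6.76, 6.42, 5.8, 4.71 and 5.62 in oxidative wild type. ECKO values of Pdk4 were 6.68, 8.42, 9.96, 6.56 and 8.56 in glycolytic and 6.15, 10.4, 7.03, 7.8 and 11.5 in oxidative muscle. All glycolytic ECKO libraries were above all glycolytic wild type libraries. Pdk4 was 1.79-fold higher (log2 fold change 0.84 ± 0.18 SE, edgeR adjusted p = 0.0006) with loss of Atf4 in glycolytic muscle and 1.47-fold higher (log2 fold change 0.55 ± 0.17 SE, edgeR adjusted p = 0.0132) in oxidative muscle, where the call was lost without ECKO replicate 5 (adjusted p = 0.0715) and over the ECKO libraries with Y-linked RNA (0.41, adjusted p = 0.097). Pdk4 is also abundant in muscle fibres. Of 18 fibre markers 11 were called higher with loss of Atf4 in glycolytic and 9 in oxidative muscle, against 13.9% and 14.6% of all genes. With the fibre level as a covariate the change of Pdk4 was 0.71 (edgeR adjusted p = 0.135) in glycolytic and 0.46 (adjusted p = 0.188) in oxidative muscle. Beyond this fit, the part of fibre RNA in the change of Pdk4 was not tested. In oxidative muscle it turned its direction with the immune level (-0.37, adjusted p = 0.8).

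Pdk3, the X-linked isoform (ENSMUSG00000035232.8, chrX:93764607-93832201, minus strand), stood at 16.7, 18.4, 14.6, 17.7 and 14.9 in glycolytic and 13.8, 13.5, 13.7, 12.1 and 10.6 in oxidative wild type. Without Atf4 it stood at 8.91, 11.3, 15.1, 13.7 and 15.3 in glycolytic and 17.2, 20.3, 15.5, 17.8 and 14.3 in oxidative muscle. It moved in opposite directions with loss of Atf4, up in oxidative muscle without overlap (log2 fold change 0.41 ± 0.12 SE, edgeR adjusted p = 0.0124) and down in glycolytic muscle with overlap (log2 fold change -0.35 ± 0.12 SE, edgeR adjusted p = 0.0355). The interaction was called (log2 fold change 0.76 ± 0.18 SE, edgeR adjusted p = 0.00213). The fall in glycolytic muscle lost its call in 5 of the fits that left out 1 library (adjusted p up to 0.118), the difference between wild type muscles (log2 fold change -0.37 ± 0.12 SE, edgeR adjusted p = 0.0201) without oxidative wild type replicate 5 or glycolytic wild type replicate 2 (adjusted p up to 0.0684), and that between ECKO muscles (log2 fold change 0.38 ± 0.13 SE, edgeR adjusted p = 0.0335) in 5 (adjusted p up to 0.109). The rise in oxidative muscle had no call over the ECKO libraries without Y-linked RNA (0.32, adjusted p = 0.138), and the difference between wild type muscles turned with the fibre level as a covariate (0.06, adjusted p = 0.955).

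Pdk2, the most abundant kinase here (ENSMUSG00000038967.13, chr11:95026258-95041354, minus strand), stood at 26.1, 24.8, 24.9, 27.4 and 25.2 in glycolytic and 20.3, 24.9, 20.7, 23.9 and 26.8 in oxidative wild type. ECKO values of Pdk2 were 20.6, 25, 20.1, 25.1 and 24.4 in glycolytic and 24.3, 29.3, 26.1, 29.5 and 29.2 in oxidative muscle. The interaction was called (log2 fold change 0.40 ± 0.12 SE, edgeR adjusted p = 0.0164) but not with an offset for transcript length (0.37, adjusted p = 0.0643). Its rise with loss of Atf4 in oxidative muscle (log2 fold change 0.25 ± 0.08 SE, edgeR adjusted p = 0.0272) lost its call in 5 of the fits that left out 1 library (adjusted p up to 0.0889), as did the difference between ECKO muscles (log2 fold change 0.26 ± 0.09 SE, edgeR adjusted p = 0.035, adjusted p up to 0.0969). The rise in oxidative muscle turned with the immune level as a covariate, to -0.17, adjusted p = 0.832. Pdk1, the hypoxia-induced isoform, had no call in any comparison.

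Pck2 was highest in oxidative wild type and fell with loss of Atf4 in both muscles, by far more in oxidative muscle. Pck2 makes phosphoenolpyruvate from oxaloacetate in mitochondria, which feeds carbon back into the lower steps of glycolysis, and is known from other cell types as a target of ATF4 (ENSMUSG00000040618.7, chr14:55540266-55551242, plus strand). It stood at 76.8, 76.9, 74.1, 76.4 and 79.1 in glycolytic and 136, 141, 155, 139 and 154 in oxidative wild type. Without Atf4 it stood at 62.6, 59.5, 60.7, 65.1 and 58.4 in glycolytic and 50.7, 56.4, 58.9, 66 and 64.6 in oxidative muscle. Oxidative wild type was above all other libraries, glycolytic wild type was above all ECKO libraries, and the ECKO muscles overlapped. Pck2 was 1.89-fold higher (log2 fold change 0.92 ± 0.06 SE, edgeR adjusted p = 1.53e-12) in oxidative than in glycolytic wild type, and the ECKO muscles had no call (log2 fold change -0.05 ± 0.06 SE, edgeR adjusted p = 0.674). With loss of Atf4 Pck2 was 2.44-fold lower in oxidative muscle (log2 fold change -1.29 ± 0.06 SE, edgeR adjusted p = 1.11e-15) and 1.25-fold lower in glycolytic muscle (log2 fold change -0.32 ± 0.06 SE, edgeR adjusted p = 0.000164). The interaction was called (log2 fold change -0.96 ± 0.08 SE, edgeR adjusted p = 2e-09). Over the ECKO libraries with and without Y-linked RNA the fall in oxidative muscle was -1.38 and -1.15 (edgeR adjusted p = 8.77e-17 and 2.45e-14). The difference between wild type muscles lost its call with the fibre level as a covariate (0.40, adjusted p = 0.0979).

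Promoter windows of 250 bases before to 50 after a gene's start (RefSeq, GRCm38.p6) were searched on both strands for TGATGNAA, a core of the element that C/EBP and ATF proteins bind, and for ACGTG, a core of the hypoxia response element. All 34 genes matched, with 51 windows. The windows of Pck2, Ldha and Pfkfb3 are shown because they hold these letters in genes that differed between the groups, with the matches in capitals and Pfkfb3 read on the minus strand.
Pck2, chr14:55540016-55540315: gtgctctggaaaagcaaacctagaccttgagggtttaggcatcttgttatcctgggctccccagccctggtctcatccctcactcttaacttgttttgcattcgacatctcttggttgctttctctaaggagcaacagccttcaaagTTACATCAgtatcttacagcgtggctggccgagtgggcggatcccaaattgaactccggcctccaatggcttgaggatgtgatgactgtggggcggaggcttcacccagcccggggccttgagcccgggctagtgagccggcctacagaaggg
Ldha, chr7:46845554-46845853: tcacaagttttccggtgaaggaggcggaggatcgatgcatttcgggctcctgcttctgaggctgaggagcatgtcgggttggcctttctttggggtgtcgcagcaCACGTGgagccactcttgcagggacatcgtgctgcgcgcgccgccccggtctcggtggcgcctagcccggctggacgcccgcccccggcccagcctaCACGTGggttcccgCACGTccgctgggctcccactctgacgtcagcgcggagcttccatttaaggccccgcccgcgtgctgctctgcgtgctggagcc
Pfkfb3, chr2:11553880-11554179: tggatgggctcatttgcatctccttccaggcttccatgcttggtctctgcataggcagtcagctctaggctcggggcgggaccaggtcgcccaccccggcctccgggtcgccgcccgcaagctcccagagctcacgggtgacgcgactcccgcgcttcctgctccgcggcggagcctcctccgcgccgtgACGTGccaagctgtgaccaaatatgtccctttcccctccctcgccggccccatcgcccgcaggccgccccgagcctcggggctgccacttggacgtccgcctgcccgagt

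The letters TGATGNAA occurred in 1 of the 51 windows (1.96%), that of Pck2, on the minus strand 103 bases before the start, and in 3.97% of all 32851 windows of the same length. ACGTG occurred in 23 of the 51 windows (45.1%), from 19 of the 34 genes, and in 19.6% of all windows. The 2 motifs do not overlap in the windows shown. Pgd and Taldo1 hold neither in their windows, which says only that these letters are absent there. A match is not a binding site, and no binding was measured.

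In the interaction, 7 of the 15 called members had a lower log2 fold change with loss of Atf4 in oxidative than in glycolytic muscle, namely Slc2a1, Hk2, Pgk1, Pgd, Taldo1, Pdhb and Pck2. The other 8, Hk1, Gpi1, Tpi1, Eno1, Pkm, Ldha, Pdk2 and Pdk3, had a higher one. Of these 15, Hk1 and Pdk3 were called in opposite directions in the 2 muscles, both up in oxidative and down in glycolytic muscle. The interaction and the comparison of wild type muscles share libraries, so their values are not independent of each other.

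Across all 20 libraries, Pfkfb3 and Pkm were the 2 of 33 tested members whose ranges did not overlap between the 7 libraries without and the 13 with Y-linked RNA, against 145 of all 13971 tested genes (1.04%). Pfkfb3 stood at 84.2 to 100.2 CPM without it and 41.5 to 59.9 CPM with it, and Pkm at 461 to 539 CPM and 589 to 721 CPM. All libraries without Y-linked RNA are ECKO, so this split and genotype cannot be told apart outside oxidative ECKO. Within oxidative ECKO, the mean log2 CPM of immune markers was 0.98 to 1.45 in the 3 replicates with Y-linked RNA and 0.14 to 0.57 in the 2 without it, and that of fibre markers was 2.99 to 3.17 and 3.41 to 3.43. Summed fibroblast markers were 65.5, 68.9 and 228 CPM in the 3 with it and 443 and 430.3 CPM in the 2 without it, and summed red blood cell markers 2506, 2634 and 3145 CPM and 4264 and 4276 CPM. Their part in the values of Pfkfb3 and Pkm was not tested. Of the 4 X-linked members, Pgk1 and Pdk3 were called in oxidative muscle with loss of Atf4 and G6pdx and Pdha1 were not.

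**Figure D4:**
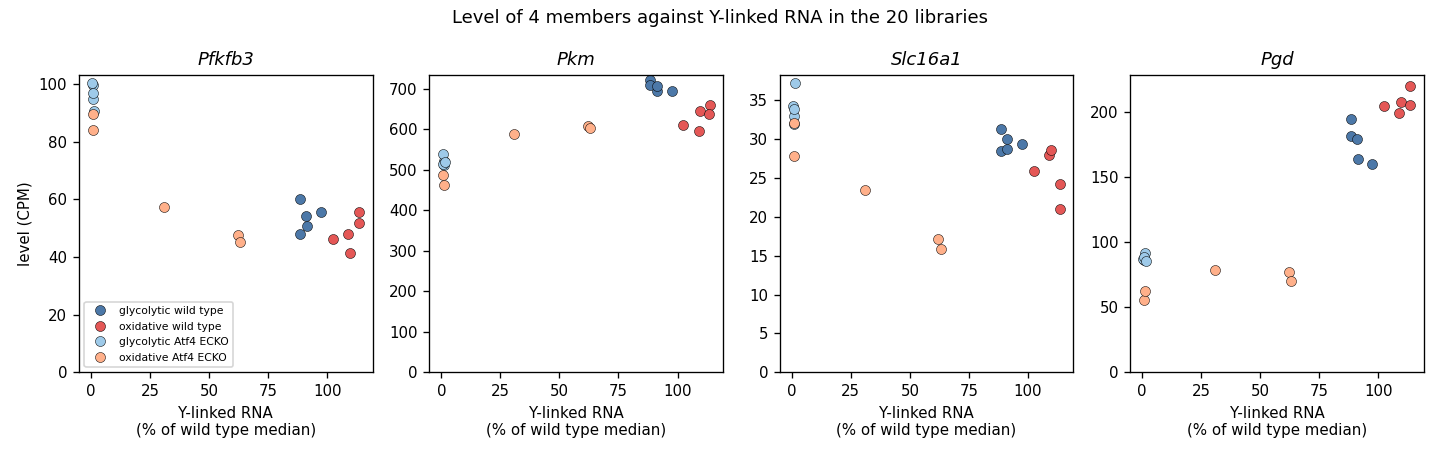
Level in CPM of Pfkfb3, Pkm, Slc16a1 and Pgd against summed Y-linked RNA as percent of the wild type median, with 1 point for each of the 20 libraries. Pfkfb3 is high and Pkm low wherever Y-linked RNA is near 0, while Pgd is low in all 10 ECKO libraries on either side.

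Of 43 further genes of these pathways, 34 were tested. Between wild type muscles 8 were higher and 7 lower in oxidative muscle, where 32.4% of all tested genes were called. With loss of Atf4 5 rose and 6 fell in oxidative muscle (32% of all genes called), and 6 rose and 7 fell in glycolytic muscle (29%). Between ECKO muscles 2 were higher and 2 lower (18.4% of all genes called), and 2 had a called interaction (22.6%). Those with an absolute log2 fold change of at least 1 in a called comparison were Hk3, Pgam2, Slc2a12 and Ldhd. Hk3, the hexokinase of myeloid cells, stood at 0.118 ± 0.115, 5.48 ± 0.864, 0.0697 ± 0.105 and 0.95 ± 0.595 CPM (mean ± SD, n = 5) in the glycolytic and oxidative wild type and the glycolytic and oxidative ECKO. It was higher in oxidative than in glycolytic muscle in wild type (log2 fold change 5.54 ± 0.52 SE, edgeR adjusted p = 3.89e-09) and in ECKO (log2 fold change 3.71 ± 0.77 SE, edgeR adjusted p = 0.000945), and fell with loss of Atf4 in oxidative muscle (log2 fold change -2.63 ± 0.40 SE, edgeR adjusted p = 1.06e-05). Its 4 group means ranked in the same order as the summed immune markers.

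Pgam2, the mutase of muscle fibres, stood at 1.87 ± 0.423, 2.53 ± 0.668, 4.24 ± 0.623 and 4.25 ± 0.974 CPM in the same order of groups. It rose with loss of Atf4 in glycolytic muscle (log2 fold change 1.18 ± 0.21 SE, edgeR adjusted p = 0.000138), where 11 of 18 fibre markers were higher too, against 13.9% of all genes. The part of fibre RNA in the change of Pgam2 was not tested. Slc2a12, a less studied glucose transporter, stood at 0.702 ± 0.454, 0.681 ± 0.22, 1.7 ± 0.692 and 1.43 ± 0.327 CPM and rose in glycolytic (log2 fold change 1.25 ± 0.39 SE, edgeR adjusted p = 0.0157) and in oxidative muscle (log2 fold change 1.06 ± 0.39 SE, edgeR adjusted p = 0.038). Ldhd, which oxidises the D form of lactate, stood at 1.7 ± 0.419, 1.15 ± 0.541, 0.537 ± 0.206 and 1.12 ± 0.506 CPM and fell in glycolytic muscle (log2 fold change -1.62 ± 0.41 SE, edgeR adjusted p = 0.0039), with a called interaction (log2 fold change 1.55 ± 0.57 SE, edgeR adjusted p = 0.0491).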

How the data were processed

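Endothelial RNA from 4 groups of 5 libraries was sequenced as single-end reads of 100 bases from a stranded mRNA kit. The authors quantified transcripts with kallisto, per the submitters' processing notes, which also name DESeq2 and GRCh38.p13 with no versions. The deposited tables hold mouse Ensembl transcripts, although the build named is human. The deposited values are estimated counts and TPM for each transcript, per the file headers. The sources used here do not give how strand was handled.

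Here estimated counts were summed per gene through GENCODE M21 (GRCm38) and rounded. Of 129439 transcripts, 128643 matched, and those without a match held at most 0.221% of a library. Totals ran from 8013223 to 21720127 counts, which sets the counting precision of rare members such as Hk2. CT010467.1 held 8.89 to 12.2% and mitochondrial genes 5.49 to 14.2% of the counts.

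The 20 libraries were fitted in edgeR 4.0.16 (R 4.3.3) by its quasi-likelihood test, with TMM factors, 4 group means and its filter on low counts. P-values were adjusted by Benjamini-Hochberg over 13971 genes, and a call is an adjusted p below 0.05. The SE is the absolute log2 fold change divided by the square root of the F statistic. The script was tested on simulated data. The M1 share of Pkm was compared by 2-sided exact permutation tests (scipy 1.17.1), whose smallest p is 0.00794.

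The members, lists and tests were chosen with earlier results of these data known. Each library's value is given for members called with an absolute log2 fold change of at least 0.6 and for those with a called interaction, and other genes of the pathways are named at 1 or more. Alternatives were DESeq2 1.42.0, limma 3.58.1 (voom), other scaling, filter, length offset, covariates, subsets and leaving out each library. Proteins were not used here.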

Additional observations from a re-analysis of the deposited data

Results flagged for a closer look

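In 7 of 132 groups of 5 libraries, 1 library stood apart from the other 4 of its group by Dixon's test, where chance alone flags about 1 group in 20. Hk2 was 1.27 CPM in oxidative ECKO replicate 4 against 0.709 to 0.788 CPM in the others, a library with little Y-linked RNA. Pfkl was 91.0 CPM in oxidative ECKO replicate 1. Pfkfb4 was 2.96 CPM in glycolytic ECKO replicate 4. Tpi1 was 117.6 CPM in glycolytic wild type replicate 4. G6pdx was 63.2 CPM in glycolytic ECKO replicate 1. Tkt was 163.6 CPM in glycolytic wild type replicate 1. Pdha1 was 78.5 CPM in oxidative wild type replicate 5. These 7 flags fell on 7 libraries and 7 genes.

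For 15 members the change with loss of Atf4 differed between the muscles by the interaction term of edgeR. The log2 difference, oxidative minus glycolytic, was negative for Slc2a1 (-0.41), Hk2 (-2.002), Pgk1 (-0.59), Pgd (-0.60), Taldo1 (-0.71), Pdhb (-0.23) and Pck2 (-0.96). It was positive for Hk1 (0.38), Gpi1 (0.25), Tpi1 (0.30), Eno1 (0.24), Pkm (0.24), Ldha (0.19), Pdk2 (0.40) and Pdk3 (0.76). In the same contrast, where 22.6% of all genes were called, 6 of 14 tested immune markers and 5 of 18 fibre markers were called lower, 6 of 12 pericyte and smooth muscle markers higher and 4 lower, and 5 of 12 endothelial markers higher. Their part in these differences was not tested beyond the fits with the immune or the fibre level as a covariate.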

How the results depend on the processing

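Of 80 calls over members and comparisons, DESeq2 lost 0, size factors of the DESeq2 type 1, limma-voom 1, counts without mitochondrial genes and CT010467.1 2, no filter on low counts 7, and an offset for effective length 11. Fits of the compared groups alone lost 4 of 65. The oxidative ECKO libraries with Y-linked RNA alone lost 9, and those without it 7. None of these settings reversed a call. Leaving out 1 library lost 17 of the 80 calls in at least 1 fit, and the members called ran from 16 to 20 between wild type muscles, 13 to 18 for loss of Atf4 in oxidative muscle, 13 to 15 in glycolytic muscle, 11 to 14 between ECKO muscles and 12 to 17 for the interaction.

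Libraries with the same replicate number shared little variation. None of the 30 pairs had a correlation above 0.1 (from -0.0662 to 0.0996), and 9 of 30 correlated best with their own number. Pairs across genotypes cannot come from the same mouse. Such correlations cannot exclude that the muscles of a mouse share a number within a genotype. With a replicate block the members called were 19, 17, 14, 13 and 15, in the order of comparisons above, and the block ended the calls of Pdha1 in glycolytic muscle (edgeR adjusted p = 0.0653) and Tkt in oxidative muscle (adjusted p = 0.0669).

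The covariates changed most. With the fibre level, members called were 3 between wild type muscles, 10 for loss of Atf4 in oxidative and 8 in glycolytic muscle, and 2 between ECKO muscles, and 41 calls were lost. All called genes went from 4520 to 902 between wild type muscles, from 4054 to 1789 in glycolytic muscle and from 2571 to 717 between ECKO muscles. The log2 fold change reversed for Pkm (0.058) and Pdk3 (0.0624) between wild type muscles, for Pfkfb3 in oxidative muscle (-0.00496) and for Dlat between ECKO muscles (0.0689).

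With the immune level, members called were 8 between wild type muscles, 6 in oxidative muscle, 8 between ECKO muscles and 8 for the interaction, and 41 calls were lost. All called genes were 1151, 1572, 1282 and 1737 in these, against 4520, 4470, 2571 and 3163. Reversed values were Pgk1 (-0.28), Pgd (-0.81) and Taldo1 (-0.65) between wild type muscles. In oxidative muscle they were Slc2a1 (0.51), Pfkl (-0.21), Pfkfb3 (-1.46), Pkm (0.67), Pdk2 (-0.17) and Pdk4 (-0.37). Between ECKO muscles they were Pfkfb3 (0.48) and Slc16a1 (0.45), and in the interaction Slc2a1 (0.19).

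With the level of Y-linked RNA, chosen after seeing the data, members called were 11 in oxidative and 9 in glycolytic muscle, 18 calls were lost, and all called genes were 2654 and 2297 against 4470 and 4054. Reversed values were Slc2a1 (0.21), Pfkfb3 (-0.72) and Pkm (0.24) in oxidative muscle, and Pfkfb3 (-0.39), Pkm (0.0694) and Taldo1 (0.0195) in glycolytic muscle. Covariate levels hardly overlap between the groups compared, and the cause of these changes was not tested.

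The difference in M1 share of Pkm without 1 library ran from 0.762 to 1.63 points between wild type muscles, from -2.51 to -1.34 in oxidative muscle, from 0.993 to 2.24 in glycolytic muscle and from -3.12 to -1.68 between ECKO muscles. Without oxidative wild type replicate 4 the first was 1.63 and the second -2.51, each with an adjusted exact permutation p of 0.03175. Depth limits Hk2 and Pfkfb4, the tested members with the lowest mean CPM.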
